A study of Mus musculus with 64 samples.

Results

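The 10 genes described here encode the proteins that build and work in small nucleolar ribonucleoproteins (snoRNPs), the particles in which small nucleolar RNAs (snoRNAs) guide the chemical modification of ribosomal RNA. They were taken from the mouse count table by gene symbol, through the Gene IDs of its entries, and are 10 of 36332 distinct IDs. Of these genes, 6 belong to the box H/ACA particle (Dkc1, Nop10, Nhp2, Gar1, Naf1 and Shq1) and 3 to the box C/D particle (Fbl, Nop56 and Nop58), and Nolc1 serves both. Dkc1 and its partners were picked because Dkc1 had been seen at lower values in knockout than in wild-type libraries of these same data, so every knockout against wild-type value below is a description and carries no test for these genes. All 10 genes passed the filter on low values in every tissue.

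The study profiled polyadenylated RNA from mice with and without an induced deletion of Myc, the gene of a transcription factor that drives growth and ribosome production, at 5 and 20 months of age. Knockout (KO) mice were a cross of 2 lines. One, labelled with a B6.129 background, carried the allele Gt(ROSA)26Sortm1(cre/ERT2)Tyj, a Cre recombinase that tamoxifen switches on and that is driven from the ROSA26 locus, active in most tissues. The other, on a background labelled B6.129-B6.129S6, carried Myctm2Fwa, a Myc allele that Cre can excise. Wild-type (WT) mice were labelled C57/B6, with no Cre allele named, so the genotype at Myc, the Cre allele and the strain background cannot be told apart. Both kinds of mice received 5 daily intraperitoneal injections of tamoxifen in corn oil at 75 mg/kg around weaning. The 12 groups were KO and WT at each age in omental adipose tissue, liver and skeletal muscle. At 5 months each group held 6 libraries, except muscle KO with 4, and at 20 months each held 5, for 64 in all. Library codes of the 20-month groups contain an 18.

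Box H/ACA particles convert chosen uridines of ribosomal and spliceosomal RNA to pseudouridine, and box C/D particles add a methyl group to the ribose of chosen nucleotides. Dkc1 is dyskerin, the pseudouridine synthase at the centre of the H/ACA particle. Dyskerin is also a part of telomerase, since the telomerase RNA ends in an H/ACA domain, and mutations of its gene on the X chromosome cause dyskeratosis congenita, a disease of short telomeres and failing tissue renewal. Genes of nucleolar proteins and ribosome assembly, this family among them, are classic examples of genes bound by Myc, which with its partner Max prefers the E-box hexamer CACGTG and tolerates variants of it.

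The stretch of DNA just before the start of a gene is shown here for 3 genes: Dkc1, on which the knockout comparison turns, Nop10, its partner in the same particle with the highest level per length, and Nolc1, whose window held the most matches. Sequences and positions are those of build GRCm38.p6, with positions from its RefSeq genes. Sequence windows around the start were at hand for 8 of the 10 genes, without Naf1 and Fbl. Each run below is the 100 bases up to the base before the annotated start, on the plus strand, and capitals mark variant E-boxes on either strand.
Dkc1, chrX:75095754-75095853: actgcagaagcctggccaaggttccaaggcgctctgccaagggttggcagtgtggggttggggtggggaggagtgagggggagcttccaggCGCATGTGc
Nop10, chr2:112261826-112261925: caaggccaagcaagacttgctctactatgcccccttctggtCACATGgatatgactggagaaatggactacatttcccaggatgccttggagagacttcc
Nolc1, chr19:46075747-46075846: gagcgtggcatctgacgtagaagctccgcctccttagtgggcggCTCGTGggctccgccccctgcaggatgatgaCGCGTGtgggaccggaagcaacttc

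The capitals in Dkc1 hold the variants CATGCG (read here as CGCATG) and CATGTG, which overlap and begin 9 and 7 bases before the start. In Nop10 the variant CATGTG (read as CACATG) begins at base -59 from the start, and in Nolc1 CACGAG (read as CTCGTG) and CACGCG (read as CGCGTG) begin at bases -56 and -25. Windows from 250 bases before to 50 bases after the start were searched on both strands for these hexamers, in the 8 genes and in all 32851 annotated windows. The canonical CACGTG was found in 0 of the 8 windows and in 7.15% of all. CACGCG was in 3 (Nop10, Nhp2 and Nolc1) against 9.27% of all, and CACGAG was in 3 (Nop58, Nop56 and Nolc1) against 6.48% of all. CATGTG was in 2 (Nop10 and Dkc1) against 14.2%, and CATGCG in 1 (Dkc1) against 6.50%. A match states only that these letters are in the window.

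The libraries held 15.4 to 28.5 M reads each, with a median of 19.6 M. Expression is given on the deposited scale, which its header calls CPM. The columns sum to between 0.529 and 1.64 M, so a value is a scaled count and not a fixed share of the library. Each tissue showed its own cell markers: the summed CPM of 6 hepatocyte genes was at least 98806 in every liver library, that of 6 skeletal muscle genes at least 149359 in every muscle library, and that of 6 adipocyte genes at least 6769 in every adipose library. Away from liver, the hepatocyte sum reached 2634 in 1 WT muscle library of 20 months and 707 in 1 KO adipose library of 20 months. Markers of the epididymis summed to over 10 CPM in 5 libraries of 5 months, 4 of them adipose. In adipose tissue Crisp1, Adam7 and Lcn5 reached 5461, 652 and 144 CPM, while the other listed markers, Lcn8, Lcn9 and Cst8, stayed at or below 0.292. Xist RNA was present in 12 libraries, 2 in each group of 5 months and none at 20 months. The Y-linked genes Ddx3y, Uty, Kdm5d and Eif2s3y summed to 0 CPM in these 12 libraries and to at least 84.9 in all others. By these reads the groups of 5 months held both sexes and those of 20 months males only, so the contrasts of age also differ in sex. In whole tissue, fewer cells of a type and less RNA per cell cannot be told apart.

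Myc itself was lower in KO than in WT libraries. In liver the WT libraries ranged from 5.46 to 33.7 CPM at 5 months and from 5.36 to 7.61 at 20 months, and all KO libraries lay below them, between 1.16 and 4.04 and between 1.12 and 2.92. In adipose tissue the mean was 17.7 ± 5.11 CPM (SD, n = 6) in WT and 5.76 ± 2.91 (n = 6) in KO at 5 months, with no overlap, and 11.97 ± 3.03 (n = 5) against 7.36 ± 1.76 (n = 5) at 20 months, with a small overlap. Muscle overlapped at both ages, with means of 29.1 ± 27.1 (n = 6) against 10.2 ± 5.21 (n = 4), and of 7.91 ± 3.21 against 5.98 ± 3.83 (n = 5 each). In muscle at 20 months the libraries labelled KO are therefore not set apart by their Myc reads. The labels do not say whether the counting covered only the excised exons.

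Dkc1 (Gene ID 245474, chrX:75095854-75109776) had a lower mean in KO than in WT in each of the 6 pairings of tissue and age, which is the observation it was picked for. The gap was widest in adipose tissue, where the KO mean was 37.8% below the WT mean at 5 months and 36.6% below it at 20 months. It was 25.3% and 25.5% in muscle, and 20.4% and 17.7% in liver. Nop58 also had a lower KO mean in all 6, by 5.86% in adipose tissue at 20 months up to 27.7% in muscle at 5 months. The 10 genes differed in this contrast, and Dkc1 was the member whose groups separated without overlap, in adipose tissue at both ages.

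In adipose tissue at 5 months, Dkc1 ran in WT from 13.4 over a median of 16.4 to 17.9 CPM, and in KO from 7.36 over a median of 10.1 to 12.1. Every KO library lay under every WT library. At 20 months the WT libraries stood at 9.67, 11.01, 12.5, 12.8 and 13.3 CPM, and the KO libraries at 5.88, 7.14, 7.25, 8.05 and 9.25, again without overlap. The fitted differences, on log2(CPM + 1), were -0.65 (SE 0.13) at 5 months and -0.60 (SE 0.14) at 20 months. Among all 14286 genes tested in adipose tissue, every KO library lay below every WT library for 0.203% at 5 months and 0.644% at 20 months, against 1 of the 10 members at each age. Since Dkc1 was chosen on this contrast, nothing is read from that. At 5 months the 2 KO libraries with Xist held the lowest Dkc1 values of their group, 7.36 and 9.08 CPM, against 9.43 to 12.1 in the other 4, and in WT the 2 libraries with Xist held 16.9 and 17.2, inside the range of the others. Without the libraries with Xist the adipose difference at 5 months was -0.48.

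In liver at 5 months the WT values of Dkc1 were narrow and the KO values were not. WT libraries of 5 months ran from 16.8 over a median of 17.5 to 18.5 CPM, while KO libraries ran from 8.85 over 13.5 to 21.5. In KO, 5 of 6 libraries were below every WT library and 1, K5L5218, was above them all. At 20 months the WT libraries stood at 14.8, 15.1, 15.8, 17.4 and 18.7 CPM and the KO libraries at 12.3, 12.6, 13.5, 14.2 and 14.9, so that 4 of 5 in KO lay under all WT values and the fifth was just inside their range. The differences were -0.37 (SE 0.15) and -0.26 (SE 0.16) on the log2(CPM + 1) scale. Full separation was seen for 0 of 10 members at either age, with KO below WT for 0.0619% of all 12924 genes at 5 months and 1.01% at 20 months.

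In skeletal muscle the gap was between those of the other tissues. At 5 months WT libraries ran from 16.0 over a median of 19.8 to 22.1 CPM, and the 4 KO libraries stood at 13.3, 13.4, 15.2 and 16.1, the last of them inside the WT range. At 20 months the WT libraries stood at 20.4, 25.7, 26.4, 30.7 and 35.2 CPM and the KO libraries at 17.0, 18.2, 19.6, 23.7 and 24.6. Of the KO libraries, 3 of 4 at 5 months and 3 of 5 at 20 months were below every WT library, and the differences were -0.39 (SE 0.14) and -0.40 (SE 0.13). Full separation was again seen for 0 of 10 members, with KO below WT for 0.212% of all 13237 genes at 5 months and 1.71% at 20 months. The direction in all 6 pairings was the same in each of the 114 alternative fits, counted over the 6. These fits reuse the libraries on which Dkc1 was picked, so nothing is read from that.

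**Figure D1:**
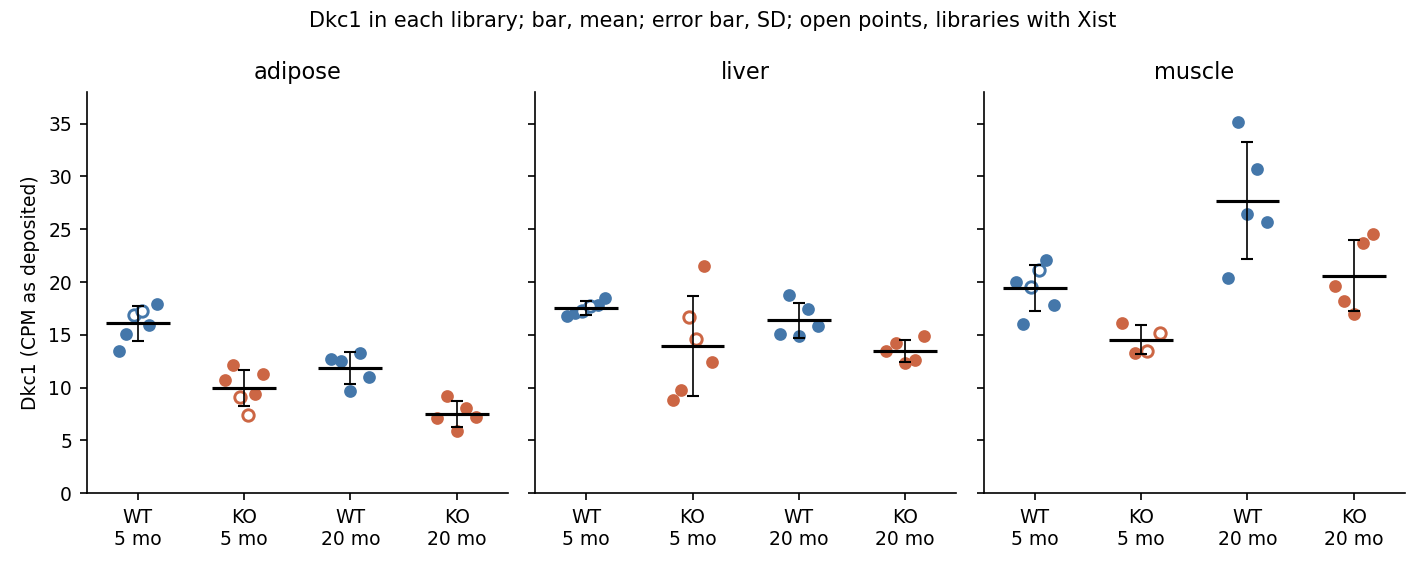
Dkc1 level in CPM as deposited (vertical axis, from 0) in each of the 64 libraries, arranged by tissue, age and genotype, with the group mean and SD. Open points are libraries with Xist RNA. Adipose KO libraries lie wholly below WT at both ages (7.36 to 12.1 against 13.4 to 17.9 CPM at 5 months), while liver and muscle overlap by 1 or 2 libraries.

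The order of the 12 group means ran from 7.51 ± 1.24 CPM (SD, n = 5) in adipose KO at 20 months to 27.7 ± 5.54 (n = 5) in muscle WT at 20 months. Above adipose KO of 20 months came adipose KO of 5 months (9.99 ± 1.71), adipose WT of 20 months (11.9 ± 1.49), liver KO of 20 months (13.5 ± 1.07), liver KO of 5 months (14.0 ± 4.72) and muscle KO of 5 months (14.5 ± 1.38). Then followed adipose WT of 5 months (16.1 ± 1.63), liver WT of 20 months (16.4 ± 1.66), liver WT of 5 months (17.5 ± 0.633), muscle WT of 5 months (19.4 ± 2.21) and muscle KO of 20 months (20.6 ± 3.36). Neighbouring groups in this order overlapped in their library values in every case. The order holds for the deposited scale, and between tissues it depends on the scaling.

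The nearest genes on either side of Dkc1 that passed the filter in every tissue were listed after the values had been seen. They show the region of the X chromosome in the same contrasts. Mpp1, F8 and Fundc2 lie within 273 kb of Dkc1, and Fam3a, Ikbkg and G6pdx 639 to 703 kb away. Over the 6 pairings the KO minus WT difference of Dkc1 lay between -0.65 and -0.26. G6pdx, the first enzyme of the pentose phosphate pathway, ranged from -0.38 to 0.49 and was negative in 2 of 6, and Ikbkg, the regulatory subunit of the IκB kinase, ranged from -0.25 to 0.11 and was negative in 3 of 6. Fam3a ranged from -0.17 to 0.10 and Mpp1, whose annotation overlaps the end of Dkc1, from -0.34 to 0.48, both negative in 2 of 6. F8, the gene of coagulation factor VIII, was negative in 3 of 6 (-0.47 to 0.28) and Fundc2, a mitochondrial outer membrane protein, in 5 of 6 (-0.35 to 0.04). Dkc1 was negative in 6 of 6, which is the observation it was picked for, so nothing is read from its contrast with these genes.

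Nop10, Nhp2 and Gar1 form the H/ACA core with dyskerin, and their KO and WT values overlapped in adipose tissue at both ages. Nop10 (Gene ID 66181) differed by -0.10 (SE 0.28) there at 5 months and 0.11 (SE 0.30) at 20 months. Nhp2 (Gene ID 52530), which binds the guide RNA, differed by -0.31 (SE 0.25) and 0.08 (SE 0.27), and Gar1 (Gene ID 68147), which helps the particle release its substrate, by -0.39 (SE 0.22) and 0.01 (SE 0.24). Nop10 in adipose tissue at 5 months ran from 20.7 to 46.8 CPM in WT and from 14.5 to 71.8 in KO, a wider spread than that of Dkc1 in any adipose group.

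In liver at 5 months Nhp2 differed by -0.32 (SE 0.21), Gar1 by -0.28 (SE 0.18) and Nop10 by -0.05 (SE 0.12). At 20 months the 3 genes lay between -0.06 and 0.12. Muscle at 5 months had Nop10 at 0.14 (SE 0.20), Nhp2 at -0.23 (SE 0.15) and Gar1 at -0.08 (SE 0.22). Muscle at 20 months had Nhp2 at -0.34 (SE 0.15), Nop10 at -0.29 (SE 0.19) and Gar1 at -0.21 (SE 0.21), with KO libraries of Nhp2 between 13.9 and 16.7 CPM and WT libraries between 15.9 and 24.7. Naf1 (Gene ID 234344), the assembly factor that holds Gar1's place until the particle matures, and Shq1 (Gene ID 72171), the chaperone that keeps new dyskerin away from other RNA, stayed between -0.17 and 0.14 in all 6 pairings. Shq1 in muscle at 20 months came closest to a separation, as 4 of 5 in KO lay under all WT values (1.77 to 2.45 against 2.20 to 2.73 CPM).

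The box C/D genes and Nolc1 had lower means in KO than in WT liver at 5 months. There Nop56 (Gene ID 67134), a core scaffold protein, ran from 20.97 over 31.3 to 43.7 CPM in WT and from 19.2 over 20.1 to 24.1 in KO, a difference of -0.48 (SE 0.14). Nop58 (Gene ID 55989), its paralog in the particle, ran from 22.1 to 33.6 in WT and from 16.5 to 24.1 in KO, a difference of -0.41 (SE 0.14). Nolc1 (Gene ID 70769), or Nopp140, the chaperone that carries snoRNPs between nucleolus and Cajal body, ran from 30.1 to 54.2 in WT and from 20.48 to 36.2 in KO, a difference of -0.51 (SE 0.16). Fbl (Gene ID 14113), the methyltransferase fibrillarin, differed by -0.29 (SE 0.15). All 4 genes overlapped between genotypes, with between 1 and 4 of 6 in KO lying under all WT values. At 20 months the same genes in liver lay between -0.14 (Nop58) and 0.20 (Nolc1). All 4 genes were also lower in KO muscle, at -0.38 (Nop58), -0.30 (Fbl), -0.24 (Nop56) and -0.14 (Nolc1) at 5 months. There they lay between -0.16 (Nop58) and -0.05 (Nop56) at 20 months. In adipose tissue they lay between -0.21 (Nop56) and -0.09 (Fbl) at 5 months, and between -0.11 (Nop56) and 0.10 (Fbl) at 20 months.

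Across the 10 genes the median KO minus WT difference was -0.15 in adipose tissue at 5 months, where 8 of 10 were negative, and 0.04 at 20 months, where 3 of 10 were. In liver it was -0.30 (8 of 10 negative) and 0.00 (5 of 10), and in muscle -0.20 (9 of 10) and -0.16 (10 of 10). The medians over all genes tested lay between -0.04 and 0.01. KO adipose libraries of 5 months also differed in their markers: epididymis genes summed to a median of 478 CPM against 0 in WT, with 3 KO and 1 WT libraries above 10. The adipocyte sum had a median of 9802 CPM in KO (6769 to 25496) against 17736 in WT (11613 to 25808), and T cell markers 14.0 (10.7 to 26.6) against 8.30 (5.60 to 14.2). The part of these markers in the differences was not tested.

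**Figure D2:**
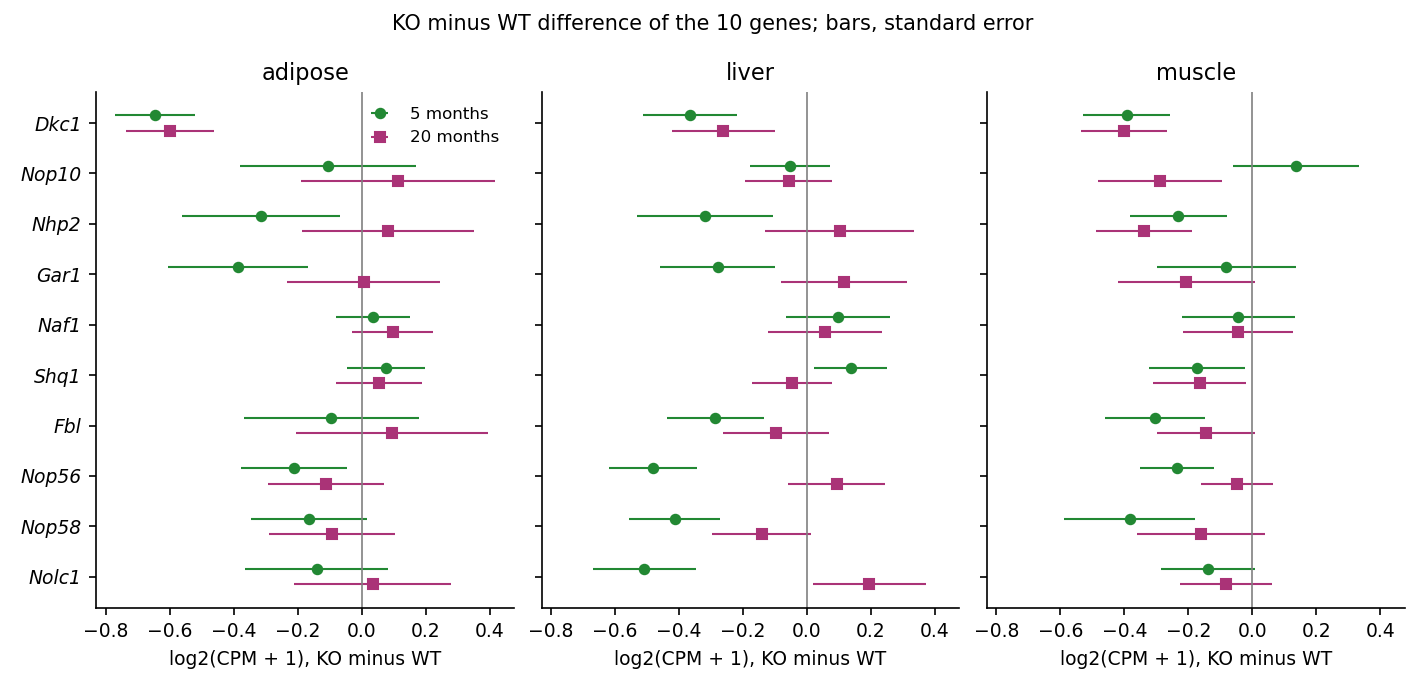
KO minus WT difference on the log2(CPM + 1) scale (horizontal axis) for each of the 10 genes in the 6 pairings of tissue and age, with SE bars and a line at 0. Dkc1 lies left of 0 in all 6, from -0.65 in adipose tissue at 5 months to -0.26 in liver at 20 months. So does Nop58, from -0.41 in liver at 5 months to -0.09 in adipose tissue at 20 months. The others scatter on both sides of 0 in adipose tissue and liver at 20 months.

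Other genes of the pathway showed no call between genotypes in limma or edgeR, and 1 in DESeq2. A list of 69 genes covered telomerase, snoRNP assembly, Cajal bodies and nucleolar transport, stand-alone pseudouridine synthases, the small-subunit processome built around the U3 snoRNA, and transcripts that host snoRNAs in their introns. In limma with Benjamini-Hochberg adjustment 0 of 69 passed an adjusted p of 0.05 in adipose tissue at 5 and 20 months, against 0.105% and 0% of all genes in either direction. In liver 0 of 69 passed at either age (0.0696% and 0.0232% of all genes), and in muscle 0 of 68 (0% and 0.0302%). At an unadjusted p under 0.05 the counts in the same order were 6, 0, 9, 3, 5 and 4, and the shares of all genes 11.8%, 2.25%, 6.94%, 5.80%, 4.10% and 13.8%. The edgeR quasi-likelihood test called 0 of them in all 6 pairings, and DESeq2 called 1, the snoRNA host transcript Snhg1, lower in KO liver at 5 months.

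The change with age did not enter the choice of the genes and could be tested within each genotype. In WT adipose tissue all 10 genes were lower at 20 than at 5 months in their fitted values, with a median log2 difference of -0.48 against 0.01 over all genes, and 3 passed the test, Dkc1, Nhp2 and Nop56. Of all genes tested there, 3.36% were called lower and 7.41% higher with age. Dkc1 fell from 16.1 ± 1.63 CPM (SD, n = 6) to 11.9 ± 1.49 (n = 5), by 0.41 (SE 0.13, limma adjusted p = 0.0468). The 5 older libraries, at 9.67 to 13.3, were all below the younger ones, at 13.4 to 17.9. How often genes in general separate like this between the ages was not counted, so nothing is read from such separations here or below. Nhp2 fell from 23.8 ± 5.98 to 12.01 ± 1.38 CPM, by 0.90 (SE 0.26, limma adjusted p = 0.0318), and Nop56 from 28.6 ± 7.13 to 19.0 ± 2.80, by 0.54 (SE 0.17, limma adjusted p = 0.0465). Older Nhp2 libraries reached 14.3 and the lowest younger one 14.1, and Nop56 overlapped likewise at 22.2 and 19.2.

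These calls in WT adipose tissue were close to the threshold and rested on single libraries. With 1 of the 11 libraries left out in turn, Dkc1 kept its call only without W5F5005, a library of 5 months (adjusted p 0.0404), and otherwise had an adjusted p between 0.0503 and 0.130. Nhp2 lost its call without any of W18F22, W18F23, W18F24, W18F25, W5F5041 or W5F5042 (0.0640 to 0.0762), and Nop56 without any but W5F5005 and W5F5299 (0.0501 to 0.123). Without the libraries with Xist, all of them of 5 months, the adjusted p was 0.109 for Dkc1, 0.115 for Nhp2 and 0.212 for Nop56. Gar1 (-0.64, SE 0.23) and Fbl (-0.70, SE 0.29) had differences as large but adjusted p of 0.0692 and 0.107. Between the ages the summed adipocyte markers had medians of 17736 and 14349 CPM in WT, with ranges of 11613 to 25808 and 10184 to 15707, B and plasma cell markers 59.2 and 135, and dividing cell markers 15.3 and 31.7, and their part in these falls was not tested.

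In KO adipose tissue the 10 genes were also all negative with age, with a median of -0.33, and limma called 0 of 10, against 3.75% of all genes lower and 10.5% higher. At an unadjusted p under 0.05 there were 2, against 32.2% of all genes. The edgeR test called 2 lower, Dkc1 and Nop56, against 8.85% of all genes, and DESeq2 4, with Nhp2 and Fbl, against 13.9%. Dkc1 went from 9.99 ± 1.71 to 7.51 ± 1.24 CPM, a difference of -0.37 (SE 0.13, limma adjusted p = 0.0635), near that in WT. Epididymis markers there went from a median of 478 CPM at 5 months, with 3 of 6 libraries above 10, to 0.05 at 20 months, and dividing cell markers from 11.2 to 24.5, and their part in this change was not tested. The difference between the KO effects at 20 and 5 months was 0.05 (SE 0.19) for Dkc1 in adipose tissue.

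Dkc1 moved with age in the opposite direction in muscle. In WT muscle it rose from 19.4 ± 2.21 (n = 6) to 27.7 ± 5.54 CPM (n = 5), by 0.47 (SE 0.13, limma adjusted p = 0.0178), with 4 of 5 older libraries above every younger one and W18S41, at 20.4, among them. KO muscle had the same difference, 0.47 (SE 0.14), from 14.5 ± 1.38 (n = 4) to 20.6 ± 3.36 CPM (n = 5), with every older library, from 17.0 up, above every younger one, up to 16.1, and an adjusted p of 0.0573 in limma. As a ratio of means Dkc1 was 42.5% higher at 20 months in WT and 41.9% higher in KO. Fbl, in contrast, fell in WT muscle from 22.4 ± 6.66 to 14.6 ± 1.37 CPM, by 0.54 (SE 0.15, limma adjusted p = 0.0179). So of 10 genes 1 was called higher and 1 lower in WT muscle, against 10.9% and 7.68% of all genes. In KO muscle limma called 0 of 10, against 3.60% higher and 1.96% lower, with 3 at an unadjusted p under 0.05, against 25.6% of all genes. There edgeR and DESeq2 each called Dkc1 alone, against 4.48% and 7.10% of all genes called higher.

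The call of Dkc1 in WT muscle was lost without W18S42 (0.39, adjusted p 0.0606) or W18S66 (0.43, adjusted p 0.0539) of 20 months, and without the 2 younger libraries with Xist (0.51, adjusted p 0.0591). In muscle the summed macrophage markers had medians of 82.3 CPM at 5 months and 34.7 at 20 months in WT, and the part of this in the rise was not tested. The change of the KO effect with age was -0.01 (SE 0.19) for Dkc1 in muscle.

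In liver Dkc1 showed no such change: the difference with age was -0.10 (SE 0.15, limma adjusted p = 0.726) in WT and 0.01 (SE 0.15, adjusted p = 0.983) in KO. Other members did. In WT liver 3 of 10 were called lower, against 4.36% of all genes lower and 2.83% higher. All 10 were negative, with a median of -0.40 against -0.01 over all genes. Under RPM, recovered reads scaled to the library total, the median over all genes was 0.17. There Dkc1 (0.10), Nop10 (0.07) and Naf1 (0.14) were positive, though below that median, and the other members negative. Nop56 fell from 30.6 ± 7.87 (n = 6) to 18.04 ± 2.99 CPM (n = 5), by 0.71 (SE 0.14, limma adjusted p = 0.00525). Gar1 fell from 8.76 ± 2.70 to 4.42 ± 0.798 CPM, by 0.81 (SE 0.19, limma adjusted p = 0.0128). Nolc1 fell from 43.8 ± 9.81 to 25.5 ± 4.82 CPM, by 0.74 (SE 0.17, limma adjusted p = 0.0107). For each of the 3 genes the older libraries overlapped only the lowest younger one, as with Nop56 at 14.8, 16.7, 17.0, 19.1 and 22.6 CPM against a younger range of 20.97 to 43.7. All 3 calls held with any 1 library left out. Between the ages macrophage markers in WT liver had medians of 229 (131 to 275) and 117 CPM (98.2 to 155), B and plasma cell markers 5.36 and 14.4, and mesothelium markers 6.82 and 15.2, and their part in these falls was not tested. Without the libraries with Xist, Nop56 remained called and Gar1 (adjusted p 0.0766) and Nolc1 (0.0869) did not. Under RPM Nolc1 was not called either (0.0545).

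KO liver had 1 of 10 called, against 1.31% of all genes lower and 1.68% higher. It was Shq1, which fell from 6.99 ± 1.12 (n = 6) to 4.52 ± 0.338 CPM (n = 5), by 0.52 (SE 0.12, limma adjusted p = 0.0206). The older libraries, at 3.95 to 4.80, were all below the younger ones, at 5.20 to 8.53. Its call was lost without K18L06, K18L09 or K18L10 (adjusted p 0.0541 to 0.0626) and without the libraries with Xist (0.0654). Nop56, Gar1 and Nolc1 in KO liver stood at -0.13, -0.42 and -0.04, starting from lower values at 5 months than in WT. The test of the difference between genotypes called 0 of 10 genes in each of the 3 tissues by limma, edgeR and DESeq2, against 0% of all genes in limma, and the members with an unadjusted p under 0.05 were Nop56 (0.57, SE 0.20) and Nolc1 (0.70, SE 0.24) in liver. That test shares its libraries with the KO against WT contrasts. For Dkc1 in liver it gave 0.11 (SE 0.22).

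**Figure D3:**
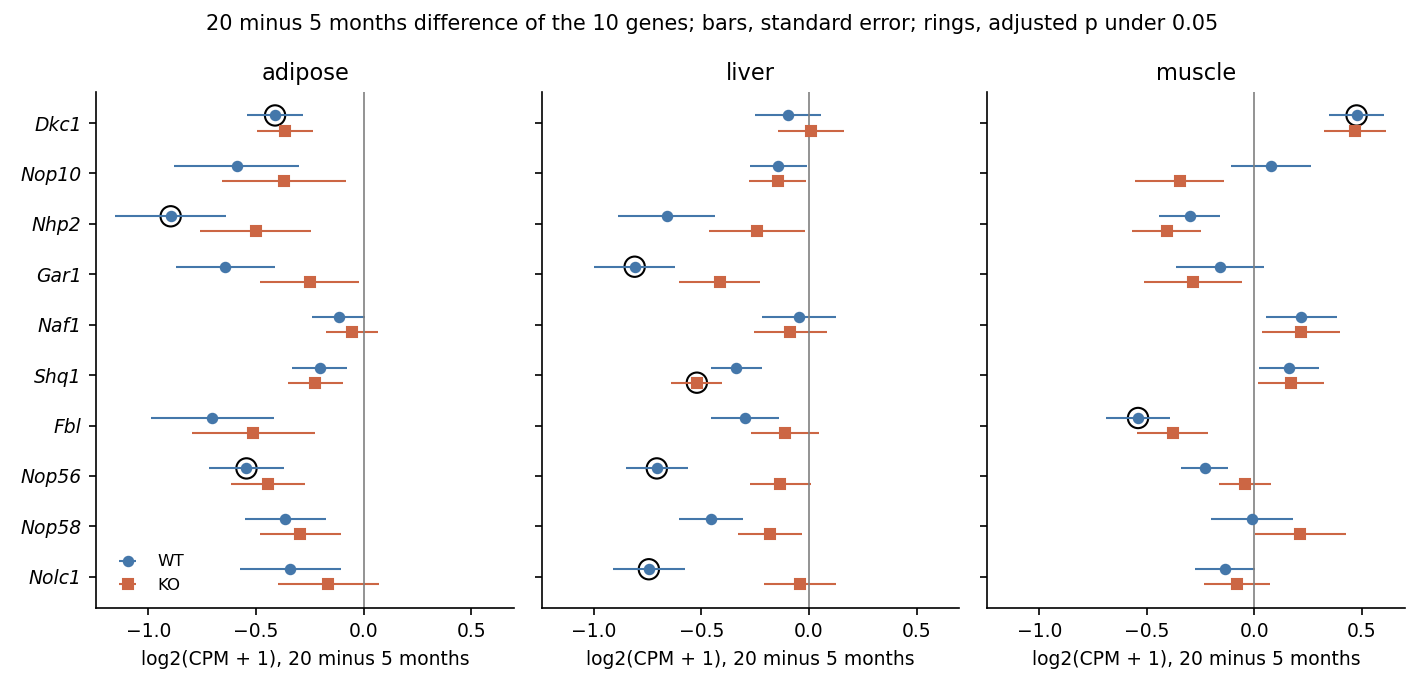
Difference between 20 and 5 months on the log2(CPM + 1) scale (horizontal axis) for the 10 genes in WT and KO mice of each tissue, with SE bars. Ringed points passed an adjusted p of 0.05 in limma. Dkc1 lies left of 0 in adipose tissue (-0.41 in WT), near 0 in liver (-0.10) and right of 0 in muscle (0.47).

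The change with age of the other genes of the pathway differed between lists and tissues. Beside the shares of all genes given above for each contrast, limma called 1 of the 69 listed genes higher and 11 lower in WT adipose tissue, where edgeR called 16 lower and DESeq2 21 (5.74% and 9.96% of all genes). In KO adipose tissue it called 2 higher and 8 lower, where edgeR called 15 lower and DESeq2 19 (8.85% and 13.9%). In WT liver it called 0 higher and 11 lower, where edgeR called 7 lower and DESeq2 13 (4.17% and 7.13%). KO liver had 1 higher and 0 lower, and DESeq2 called 3 higher and 1 lower (2.90% and 3.12% of all genes). Of 68 genes in muscle, limma called 6 higher and 2 lower in WT, where edgeR called 5 lower and DESeq2 8 (9.51% and 12.4%). In KO muscle limma called 4 higher and 1 lower, where DESeq2 called 7 higher (7.10%). The shares that limma called higher were below those of all genes in adipose tissue and liver of both genotypes and in WT muscle. The shares called lower were below those of all genes in KO liver and in muscle of both genotypes. Most of the limma calls in adipose tissue were snoRNA host transcripts, spliced RNAs that carry snoRNAs in their introns and are themselves turned over when translated. In DESeq2 these transcripts were 9 of the 21 lower calls in WT and 8 of the 19 in KO. Of 10 such transcripts 8 fell in WT adipose tissue (median -1.17) and 7 in KO adipose tissue (median -1.03), led in WT by Snhg12 (-1.76, SE 0.50) and Snhg8 (-1.73, SE 0.34) and in KO by Snhg5 (-1.82, SE 0.33) and Snhg12 (-1.69, SE 0.50). In WT liver 4 of 10 fell (median -0.71), with Snhg8 at -1.04 and Snhg12 at -1.02. In WT muscle limma called 2 of 10 lower, and edgeR and DESeq2 each called 5. In limma KO muscle had 1 lower and KO liver 0. Snhg12 in adipose tissue and Snhg8 in liver lost their calls when some single libraries were left out.

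Among protein-coding genes of these lists, Utp20, a processome component, rose in adipose tissue of both genotypes, by 0.51 (SE 0.12, limma adjusted p = 0.0128) in WT and 0.59 (SE 0.12, adjusted p = 0.00488) in KO. Pus1, a stand-alone pseudouridine synthase, fell in WT adipose tissue (-0.50) and in WT liver (-0.52). In WT liver limma called 4 of 20 processome genes lower, against 4.36% of all genes, with Rrp9, a U3 snoRNP protein, at -0.69, while edgeR called 1 and DESeq2 5, and the assembly helicase Ruvbl1 fell by 0.59. In muscle the genes that rose included Xpo1, the export receptor used by snoRNAs on their way to the nucleolus (0.88 in WT and 0.85 in KO), Coil, the Cajal body scaffold coilin (0.32 and 0.52), and the pseudouridine synthases Pus10 (0.71 in WT) and Trub2 (0.41 and 0.43). The calls of Pus1, Rrp9, Ruvbl1, Coil and Trub2, and that of Xpo1 in KO muscle, were each lost in at least 1 comparison when 1 library was left out.

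In WT mice of 5 months, the level of Dkc1 per length was eighth of the 10 genes in each tissue. Levels between genes were compared as CPM per kilobase of the shortest principal transcript in the GENCODE annotation. Dkc1 stood at 5.73 ± 0.581 (SD, n = 6) in adipose tissue, while liver had 6.25 ± 0.226 and muscle 6.93 ± 0.788. Its partner Nop10 was highest, at 29.6 ± 8.93, 45.9 ± 8.79 and 33.2 ± 10.9. The gene just above Dkc1 was Gar1 (6.93, 6.89 and 8.53), whose libraries overlapped those of Dkc1 in every tissue, and the factors Naf1 (3.21, 3.02 and 2.45) and Shq1 (2.06, 3.13 and 1.05) lay below Dkc1 with no overlap. Transcript length matters for some of these places: Nop58 stood at 12.3 in adipose tissue over its 1713-base transcript and 2.21 over its 9507-base transcript. Over the longest transcripts Nop58 lay below Dkc1 in adipose tissue, liver and muscle (2.21, 2.91 and 2.14). The eighth place of Dkc1 therefore holds only for the shortest principal transcripts.

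**Figure D4:**
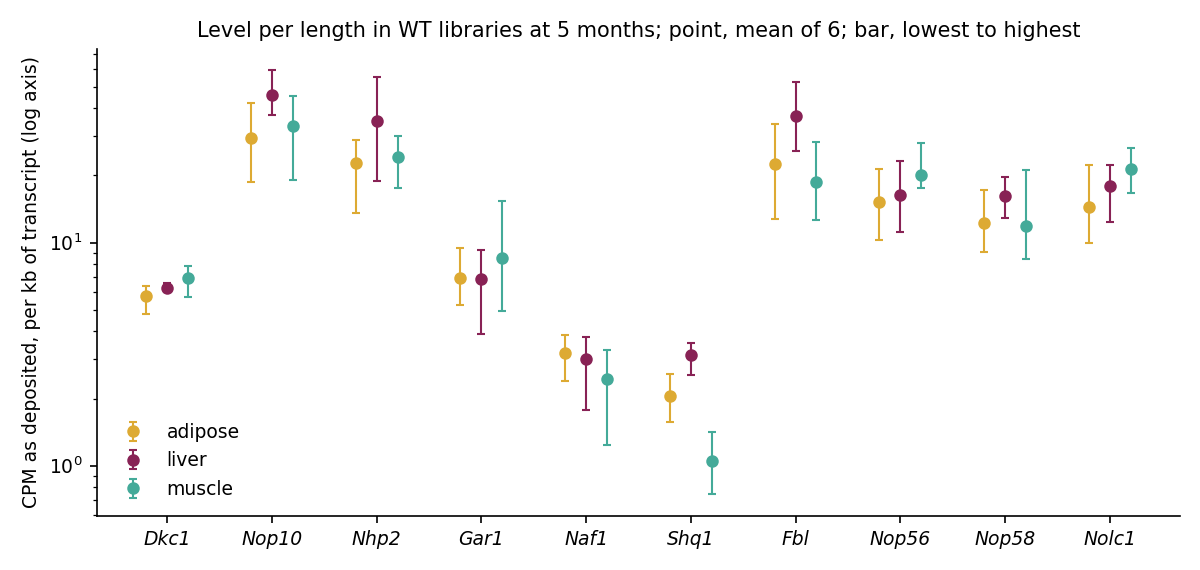
Level of each of the 10 genes in WT libraries of 5 months, in CPM per kilobase of transcript (log axis), in the 3 tissues, as the mean of 6 libraries with a bar from the lowest to the highest. With the shortest principal transcripts, as drawn, Dkc1 is eighth in each tissue (5.73, 6.25 and 6.93), between Gar1 above and Naf1 or Shq1 below.

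Between tissues of young WT mice Dkc1 was not called different, with log2 differences of -0.12 (adipose minus liver, limma adjusted p = 0.400), -0.26 (adipose minus muscle, 0.0736) and -0.13 (liver minus muscle, 0.364), each with an SE of 0.13. These calls and the direction of tissue differences depend on the scaling: scaling to the total reads of each library (RPM) instead of the deposited scale moved the median of all genes by 0.83 (adipose minus liver), 0.62 (adipose minus muscle) and -0.14 (liver minus muscle). Values are therefore also given relative to the median gene. TMM, another scaling of the recovered reads, moved that median by -0.003, 0.003 and 0.006 in the same order. It left Dkc1 at -0.13, -0.25 and -0.13. Under RPM Dkc1 passed the test in all 3 contrasts, at 0.95, 0.57 and -0.38, which relative to the median gene are 0.03, -0.23 and -0.22. On the deposited scale it stood relative to the median gene at -0.22, -0.44 and -0.11. Of the 10 genes 5 were called in adipose minus liver, all lower in the adipose samples on the deposited scale and all higher under RPM, against 71.7% of all genes called. Relative to the median gene they were lower on both scales: Fbl -0.80 and -0.52, Nop10 -0.75 and -0.46, Nhp2 -0.62 and -0.35, Shq1 -0.61 and -0.48, and Nop58 -0.50 and -0.24. Of these, Nhp2 lost its call without W5F5299, W5L5005 or W5L5042 (adjusted p 0.101 to 0.113), and Nop58 without any of 6 libraries, W5F5005, W5F5006, W5F5277, W5L5004, W5L5041 and W5L5042 (0.0576 to 0.0916).

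Shq1 was called in all 3 contrasts of tissues. On the deposited scale it stood at 6.23 ± 0.637 CPM (SD, n = 6) in liver, 4.10 ± 0.716 in adipose tissue and 2.09 ± 0.498 in muscle, with liver above adipose tissue on that scale and below it under RPM, and liver exceeded muscle by 1.24 (limma adjusted p = 1.17e-14), or 0.95 under RPM, and relative to the median gene by 1.26 and 1.12. Adipose minus muscle had 4 of 10 called, against 70.4% of all genes, with Shq1 (0.73) and Naf1 (0.38) higher in adipose tissue on both scales. Nolc1 (-0.60) and Nop56 (-0.40) were lower there on the deposited scale but higher under RPM, at 0.26 and 0.45, and relative to the median gene Nolc1 was lower on both (-0.78 and -0.55) and so was Nop56 (-0.58 and -0.36). Liver minus muscle had 5 of 10 called, against 72.3% of all genes, with Shq1, Fbl (0.94), Nop58 (0.48) and Nop10 (0.51) higher in liver and Nop56 (-0.31) lower. Under RPM Nop58 (0.22) and Nop10 (0.24) were no longer called (adjusted p 0.214 and 0.245), nor were they in DESeq2 (0.0510 and 0.0906), and Nop56 was not called in edgeR (0.0560) or without a filter (0.0601). Single libraries ended the calls of Naf1 in adipose minus muscle (without W5S5041, adjusted p 0.141) and Nop56 there (without W5F5005, 0.0522). In liver minus muscle they ended those of Nop10 (without W5L5005, W5L5042, W5S5277 or W5S5299, 0.0587 to 0.120) and Nop56 (without W5L5277, W5L5299, W5S5004, W5S5041 or W5S5042, 0.0533 to 0.173).

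No correlation of Dkc1 with Myc passed a test within the WT libraries of a tissue. Each log2(CPM + 1) value was first centred on the mean of its age group, and labels were permuted within age groups. Over 11 libraries of both ages, Pearson's r of the centred values was 0.25 in adipose tissue (permutation p = 0.466, adjusted over 3 tissues 0.698, and Spearman's rho 0.05, permutation p = 0.888). It was -0.05 in liver (permutation p = 0.795, adjusted 0.795; rho -0.25, permutation p = 0.333) and -0.23 in muscle (permutation p = 0.410, adjusted 0.698; rho -0.37, permutation p = 0.265). The adjusted p of rho was 0.888, 0.5002 and 0.5002. Without the 2 libraries farthest from the median Myc value r was 0.64, -0.18 and -0.48. Without the libraries with Xist r was 0.09, -0.05 and -0.74, the last with an adjusted permutation p of 0.0649. The centring took out the mean difference between the 2 ages, which in the muscle fit was -1.41 for Myc and 0.47 for Dkc1.

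Variation between libraries of a group was compared among the members. After each library's log2(CPM + 1) was centred on its group mean, the correlation of Dkc1 with the other 9 members over 64 libraries had a median of 0.06 and ran from -0.06 (Gar1) to 0.19 (Nop56). Naf1 had a lower median, 0.01. The values with Dkc1 differed between tissues, for Nolc1 0.54 within adipose libraries, -0.36 within liver and -0.40 within muscle, and for Nop56 0.45, 0.14 and -0.16. Over all 45 pairs of members the median was 0.25 and the highest were Nhp2 with Fbl (0.81), Nop10 with Fbl (0.80) and Nop58 with Nolc1 (0.79). Nop56 had a median of 0.60 with the other members and Gar1 0.58. These values are descriptions, since libraries share their depth and tissue piece.

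Among 11329 genes that passed the filter in every tissue, those whose variation was most like that of Dkc1 included Dcun1d1, a factor of cullin neddylation (r = 0.65), Nsun4, a mitochondrial ribosomal RNA methyltransferase (0.63), Ebag9 (0.60) and Gpbp1l1 (0.60). The best-placed member in this order was Nop56, at rank 2134 with r = 0.19. Shq1 was at rank 3508 (0.11), Nhp2 at 4352 (0.07), Nop10 at 4422 (0.07), Fbl at 4650 (0.06), Naf1 at 5819 (0.01), Nolc1 at 6181 (0.00), Nop58 at 6237 (0.00) and Gar1 at 7414 (-0.06). Myc was at rank 9949 with r = -0.20.

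**Figure D5:**
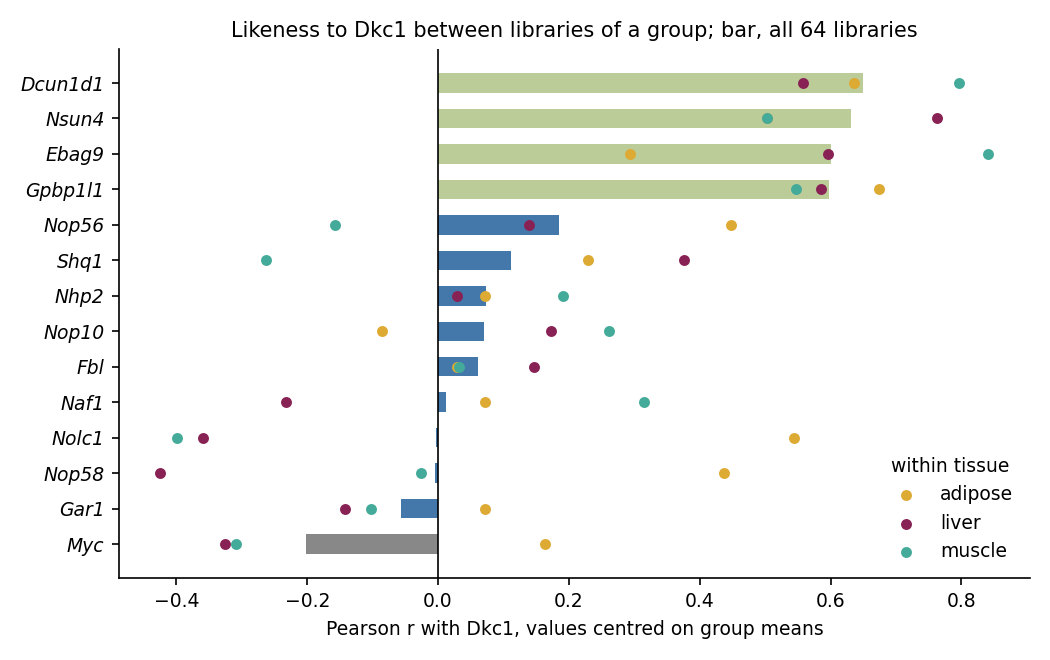
Pearson's r with Dkc1 (horizontal axis) of 4 of the most alike genes, the other 9 members and Myc, from log2(CPM + 1) centred on group means. Bars show all 64 libraries and dots each tissue alone. These 4 genes reach 0.60 to 0.65, while the members lie between -0.06 and 0.19.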

How the data were processed

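The authors deposited 1 table of 64 libraries whose header names CPM; its entries were analysed as a deposited signal scale, since the columns have no common sum. Per the labels' protocols, RNA was poly-T selected and libraries were made with a directional kit. Builds GRCm38.p6 and mm10 are named per the submitters' processing notes; the counter is CLC per the file header, and strand use in counting is not given in the sources used here. Whole reads were recovered from the value steps (100% whole within 0.1), giving 15.4 to 28.5 M per library. Members and gene lists were chosen with earlier results of these data known.

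Within each tissue limma 3.58.1 (R 4.3.3) was fitted to log2(CPM + 1) with 1 mean per group, after a filter that kept genes above 1 in a number of libraries equal to the smallest group or more; tissue contrasts used all 64 libraries. This left 14286 genes in adipose tissue, 12924 in liver, 13237 in muscle and 16240 jointly. P-values were adjusted by Benjamini-Hochberg over all of them, and the threshold was 0.05. Alternatives were a pseudocount of 0.1, no filter, TMM, RPM (recovered reads scaled to each library total), edgeR 4.0.16, DESeq2 1.42.0, an Xist covariate, and leaving out libraries. Correlations of Dkc1 with Myc used values centred on the age group's mean and 100000 permutations within age groups (scipy 1.17.1). Named beyond the members were Myc, at most 2 risen and 2 fallen called genes per pathway list and ageing contrast, and, of the 5 genes most like Dkc1, 4, since 1 is not reported here. Labels do not say that libraries are separate animals, so p-values measure the spread between libraries. The limma and edgeR fits were run on simulated counts with a common dispersion for all genes. These counts held no differences in sex or in contaminating tissue, so nothing is read from them about the calls above.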

Additional observations from a re-analysis of the deposited data

Results flagged for a closer look

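Of 120 sets of a member in a group, 7 held a library far from the others of its group, where chance gives about 1 in 20. Nop10 stood at 35.6 CPM in adipose KO replicate 27 of 20 months against 17.99 to 22.5 in the others, in the library that also held the highest hepatocyte marker sum of adipose tissue (707 CPM), and at 37.4 in liver KO replicate 10 of 20 months against 43.7 to 46.2. Shq1 stood at 3.03 in adipose WT replicate 21 of 20 months against 3.41 to 3.54. In the muscle WT library W5S5042 of 5 months Nop56 stood at 52.4 against 32.8 to 37.2 and Nop58 at 36.3 against 14.4 to 22.004, and the same library held the highest Myc value of all, 81.3. Nop58 stood at 31.0 in liver WT replicate 01 of 20 months against 16.1 to 20.0, and Nolc1 at 61.6 in muscle WT replicate 41 of 20 months against 39.6 to 45.8. None of the 7 was a value of Dkc1.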

How the results depend on the processing

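Apart from leaving out single libraries, 142 of 163 results under another setting were counted as the same. With 1 library left out, 240 of 261 were. For Dkc1 between genotypes, the same meant an unchanged direction and a shift smaller than the largest group SD. For members called it meant an equal or similar count, whichever genes were called. For Dkc1 with Myc it meant the same test outcome. Calls of single genes, and the reversals named below, were not part of these totals. The direction of Dkc1 between genotypes was kept in 114 of 114. These fits are part of the totals and reuse the libraries on which Dkc1 was picked, so nothing is read from them. Members called with age in WT adipose tissue numbered 3, against 0 without a filter, 1 under RPM, 0 with the Xist covariate, 5 in DESeq2, 0 without libraries with Xist, 5 without adipose libraries with epididymis markers, and 0 to 3 with 1 library left out. In KO adipose tissue they numbered 0, against 1 under TMM, 2 in edgeR, 4 in DESeq2, 1 without Xist libraries, 1 without epididymis libraries, and 0 to 4 with 1 left out (4 without K5F5218). WT liver had 3, against 1 without Xist libraries and 3 to 5 with 1 left out (5 without W5L5277 or W5L5299). KO liver had 1, against 0 under RPM, 0 without Xist libraries and 0 to 1 with 1 left out. WT muscle had 2, against 0 without Xist libraries and 1 to 3 with 1 left out. KO muscle had 0, against 1 under each of TMM, RPM, edgeR and DESeq2, and 0 to 1 with 1 left out (1 without K18S62). Leaving out libraries lowers the sample number; for the other settings the cause was not tested.

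Between tissues, RPM called 10 members in adipose minus liver against 5 and 9 in adipose minus muscle against 4. It reversed Nop10 (0.46), Nhp2 (0.58), Shq1 (0.44), Fbl (0.40) and Nop58 (0.69) in the first and Nop56 (0.45) and Nolc1 (0.26) in the second, as its shift of the median gene is positive. With 1 library left out adipose minus liver had 3 to 6, and 3 without W5L5042. With the replicate number as a replicate block the counts were 5, 4 and 5 for adipose minus liver, adipose minus muscle and liver minus muscle, the same as without. Libraries of the same number correlated between -0.141 and 0.377 over 28 pairs, 17 of them over 0.1. Of 12 numbers found in 2 or more tissues, 4 had Xist in every tissue and 0 in only some tissues. The labels do not say that a number is an animal.

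At depths of 15.4 to 28.5 M reads Shq1 rested on 16 to 229 reads per library and Dkc1 on 119 to 614, so counting error is largest for Shq1.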
